A study of Caenorhabditis elegans with 2 samples.

Results

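Most 5S ribosomal RNA genes of Caenorhabditis elegans lie in a tandem repeat on chromosome V, and 5 of the 14 annotated there had a ChIP-seq peak of the F26F4.8-EGFP fusion protein close by. These were rrn-4.3, rrn-4.4, rrn-4.5, ZK218.20 (rrn-4.6 in RefSeq) and Y102A5D.10 (rrn-4.12 in RefSeq). They were chosen by the position of their peaks: a summit, the point of highest enrichment, lay within 200 bp of the gene in the ranked peak list that pairs the replicates. The other 9 genes of the repeat, rrn-4.1, rrn-4.2, rrn-4.7, rrn-4.8, rrn-4.9, rrn-4.10, rrn-4.11, rrn-4.13 and rrn-4.14, had none within that distance. Because peak values chose the genes, the positions, signals and reproducibility values of their peaks are a description and carry no test.

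The ChIP-seq experiment used whole L4 larvae, 48 hours old, of strain OP776, which were grown from L1 larvae starved after bleaching. All animals carried the transgene wgIs776, in which F26F4.8 is fused to TY1, EGFP and 3xFLAG tags and which also holds unc-119(+), on an unc-119(tm4063) mutant background. An anti-GFP antibody recovered the fusion protein from sonicated chromatin in 2 biological replicates of this single group. No untagged or mock precipitation was analysed here, and in whole animals recovery in few cells cannot be told apart from weaker recovery in many.

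In eukaryotes the 5S RNA is a component of the large ribosomal subunit and is transcribed by RNA polymerase III, unlike the other rRNAs, which come from RNA polymerase I. Its promoter lies inside the transcribed region, where the zinc finger protein TFIIIA binds in the animals in which it was studied, and transcription ends at a run of T bases. In C. elegans the same repeat carries the genes of SL1 RNA, the spliced leader RNA that RNA polymerase II transcribes and that donates its 5′ end to many mRNAs by trans-splicing. Repeat units are near-identical, so a short read from inside one can match many places.

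In the reference genome (build ce11, identical to WBcel235), the array spanned 16205 bp, from 17115903 to 17132107 of chromosome V. It held 14 5S genes and 12 SL1 genes. Neighbouring 5S genes started a median of 976 bp apart, and 9 of the 13 spacings were between 972 and 986 bp. A full gene of 119 bp was present in 12 units, and 11 of these had the same sequence. All 5 genes with a peak were followed at once by TTTT, as were the 9 others. The sequence ran along the minus strand in rrn-4.2, rrn-4.3 and rrn-4.4, although these are annotated on the plus strand, and along the plus strand in the other 11.

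Annotated gene sequences departed from the most common one at rrn-4.3, rrn-4.4 and rrn-4.5, all of which had a peak. The 9 genes without a peak all had the common sequence in full. Sequences are given 5′ to 3′ in the direction of the 5S RNA, from the RefSeq genome (WBcel235). Capitals mark a base that differs from the common gene. ZK218.20 (chrV:17121944-17122062) and Y102A5D.10 (chrV:17129376-17129494) have the common sequence, which is also that of rrn-4.1, a gene without a peak. rrn-4.3 (chrV:17117863-17117981) differs from it by G56T. rrn-4.4 (chrV:17118837-17118935) and rrn-4.5 (chrV:17120013-17120111) are annotated as 99 bp, matching bases 21 to 119 of the common gene, and rrn-4.4 carries C28A; positions count from 1 at the 5′ end of the common gene, whose base is named first.
rrn-4.1, ZK218.20 and Y102A5D.10: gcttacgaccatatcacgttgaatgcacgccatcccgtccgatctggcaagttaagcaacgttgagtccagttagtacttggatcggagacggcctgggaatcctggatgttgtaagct
rrn-4.3: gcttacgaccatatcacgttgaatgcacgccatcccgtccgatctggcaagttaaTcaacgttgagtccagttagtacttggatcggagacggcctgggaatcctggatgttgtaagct
rrn-4.4: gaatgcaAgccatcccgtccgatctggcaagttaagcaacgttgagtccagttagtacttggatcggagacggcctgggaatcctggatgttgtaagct
rrn-4.5: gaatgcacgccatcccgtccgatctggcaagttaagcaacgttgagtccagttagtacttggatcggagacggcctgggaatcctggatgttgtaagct

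The units differed more in the bases that follow the gene. The first 60 bases downstream are shown for the 5 genes and for rrn-4.7, which had a peak in other lists, and capitals mark bases that did not match the flank shared by 6 units in a pairwise alignment. That common flank followed rrn-4.5 among the genes with a peak, and rrn-4.1, rrn-4.2, rrn-4.9, rrn-4.13 and rrn-4.14 among those without. The flank held 9 unmatched bases at rrn-4.3, 5 at rrn-4.4, 8 at ZK218.20 and 7 at Y102A5D.10. Among genes without a peak it held 7 at rrn-4.7 and 1 each at rrn-4.8, rrn-4.10 and rrn-4.11. The alignment allowed gaps, and skipped bases of the common flank were not counted. These counts are therefore not full numbers of differences.
rrn-4.3 flank, chrV:17117803-17117862, minus strand: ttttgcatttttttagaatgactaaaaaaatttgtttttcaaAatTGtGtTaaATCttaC
rrn-4.4 flank, chrV:17118777-17118836, minus strand: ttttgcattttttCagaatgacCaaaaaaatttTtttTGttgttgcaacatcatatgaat
rrn-4.5 flank (common), chrV:17120112-17120171, plus strand: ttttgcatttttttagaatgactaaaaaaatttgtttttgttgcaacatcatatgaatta
ZK218.20 flank, chrV:17122063-17122122, plus strand: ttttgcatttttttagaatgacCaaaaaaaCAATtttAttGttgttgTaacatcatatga
Y102A5D.10 flank, chrV:17129495-17129554, plus strand: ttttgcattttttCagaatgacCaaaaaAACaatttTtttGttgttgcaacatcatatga
rrn-4.7 flank, chrV:17123039-17123098, plus strand: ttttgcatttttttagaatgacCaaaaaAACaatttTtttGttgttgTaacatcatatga

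The 5 summits did not fall at 1 common place of the 5S unit. In the list of the replicate pair, the summit lay 36 bp upstream of the 5′ end of rrn-4.3 and 17 bp upstream of the annotated start of rrn-4.5. At rrn-4.4 it lay inside the gene, at base 38 of the 5S sequence. It lay downstream of the remaining genes, by 123 bp at ZK218.20 and by 11 bp at Y102A5D.10. Each gene's summit kept its side of the gene in every list that had it, and at the 4 genes with a peak in both replicates the 2 summits were 8 to 12 bp apart. The summit at Y102A5D.10 lay in the variant flank shown above and that at ZK218.20 past it, and the summit at rrn-4.5 lay on the side away from its common flank.

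**Figure D1:**
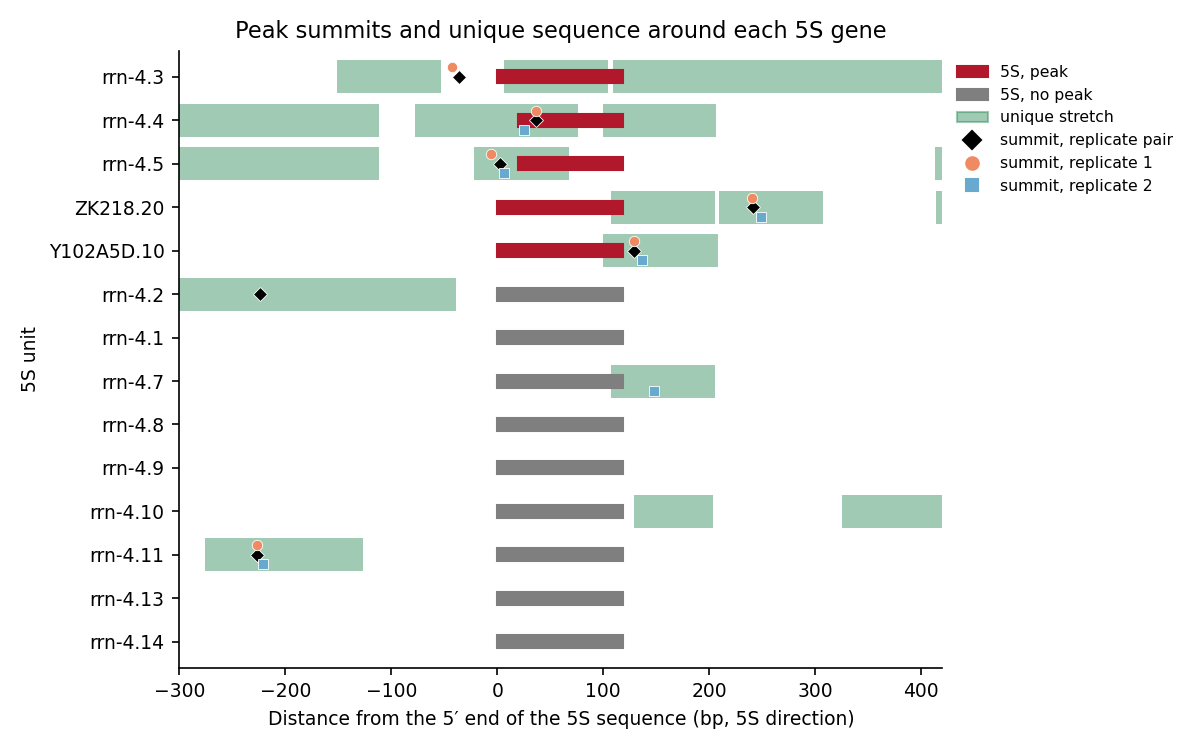
Peak summits around the 14 5S genes, aligned on the 5′ end of the 5S sequence (x axis, bp in the 5S direction; for the 2 genes of 99 bp, 0 is where the full gene would start). Rows are genes, those with a peak on top, bars are annotated genes, green bands are stretches covered by 50-base windows found once in the genome, and symbols are summits in the list of the replicate pair and in each replicate's own list; summits lie upstream of rrn-4.3 and rrn-4.5, inside rrn-4.4, and downstream of ZK218.20 and Y102A5D.10.

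The strength of a peak is given by the authors' signal, the peak caller's enrichment of each peak over its control in arbitrary units, which can be compared only within a list. The list of the replicate pair held 109990 peaks with a median signal of 23.8. It was dense: 50.4% of consecutive windows of 119 bp over the nuclear genome had a summit within 200 bp, and 5 of the 14 5S genes did, a count that the choice of genes fixes. The share of such windows was 50.2% in the other list of pooled reads, 30.3% in replicate 1's list and 28.6% in replicate 2's. The 5 peaks spread over a wide range of signal, and the 2 genes farthest along the array, ZK218.20 and Y102A5D.10, had the highest values.

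At ZK218.20 the pooled signal was 156.0, and the signal in the replicates' own lists was 72.2 in replicate 1 and 89.2 in replicate 2. Y102A5D.10 had 141.6 in the pooled reads, 73.0 in replicate 1 and 72.9 in replicate 2. Both genes have the common 5S sequence, and both had signals above 99.6% of the peaks in each of the 4 ranked lists. Their pooled signals were 6.55 and 5.94 times the median of the list.

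rrn-4.5 had a signal of 61.4 in the pooled reads, 28.8 in replicate 1 and 30.8 in replicate 2. At rrn-4.4 these values were 47.8, 25.4 and 24.0. For rrn-4.5 and rrn-4.4 the pooled signals exceeded 98.0% and 92.8% of the peaks of the list. These genes, both with a truncated 5S annotation, stood below ZK218.20 and Y102A5D.10 in the pooled reads and in both replicates. The full-length rrn-4.3 stood lower still in the pooled reads and in replicate 1, so signal did not follow the annotated length.

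rrn-4.3, the gene with the G56T substitution, had the lowest values. Its pooled signal was 25.5, which exceeded 54.8% of the list, and its signal in replicate 1 was 22.4. Replicate 2's own list had no summit within 200 bp of it, and the nearest lay 377 bp away with a signal of 12.8. The list of the replicate pair records a second signal of 7.01 for this peak, which matched no overlapping peak of replicate 2's own list. At the other 4 genes the second value equalled that of an overlapping peak of replicate 2, and at all 5 the first equalled that of replicate 1, within 0.0001.

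**Figure D2:**
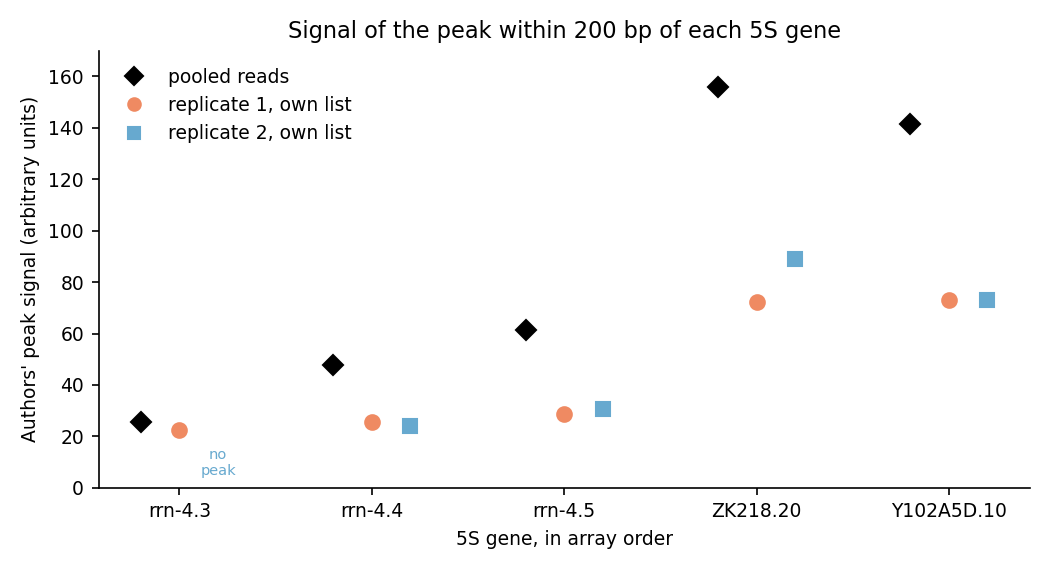
The authors' peak signal (y axis, arbitrary units) of the peak within 200 bp of each of the 5 genes (x axis), 1 point per list: pooled reads, replicate 1 and replicate 2. ZK218.20 and Y102A5D.10 lie between 72.2 and 89.2 in the replicates, the other genes between 22.4 and 30.8, and rrn-4.3 has no peak in replicate 2; no error bars are drawn because each point is 1 value.

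Each replicate's ranked list also records, per peak, 2 further signals, from the pair of peak lists behind it. In replicate 1's list these were 40.1 and 31.8 at ZK218.20, and 49.5 and 23.0 at Y102A5D.10. In replicate 2's list they were 46.2 and 42.4 at ZK218.20, and 30.8 and 43.6 at Y102A5D.10. At rrn-4.4 they were 18.3 and 7.58 in replicate 1's list and 9.29 and 15.1 in replicate 2's. At rrn-4.5 they were 9.39 and 21.8, and 13.1 and 17.9. rrn-4.3 had 5.92 and 13.9 in replicate 1's list. Within a replicate, the signals at ZK218.20 and Y102A5D.10 were thus above those at the other genes in both recorded values of each list.

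The global irreproducible discovery rate (IDR) of a peak is an expected share of peaks that would not repeat between the paired lists. It is taken over all peaks ranked at least as high as that peak. In the list of the replicate pair, 1.01% of all ranked peaks had a global IDR at or under 0.01, and the peaks at ZK218.20 and Y102A5D.10 were among them, with 0.000421 and 0.000579. The other three genes did not pass, with 0.0319 at rrn-4.5, 0.0949 at rrn-4.4 and 0.519 at rrn-4.3. The same split appeared in the other lists, where 0.992% of the peaks of the other pooled list, 0.726% of those of replicate 1 and 0.77% of those of replicate 2 were at or under 0.01. At ZK218.20 the IDR was 0.000459 in the other pooled list, 0.00167 in replicate 1 and 0.000167 in replicate 2. At Y102A5D.10 it was 0.000643, 0.00585 and 0.000683. At rrn-4.5 it was 0.0717 in the other pooled list, 0.804 in replicate 1 and 0.431 in replicate 2, and at rrn-4.4 it was 0.0898, 0.815 and 0.810.

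**Figure D3:**
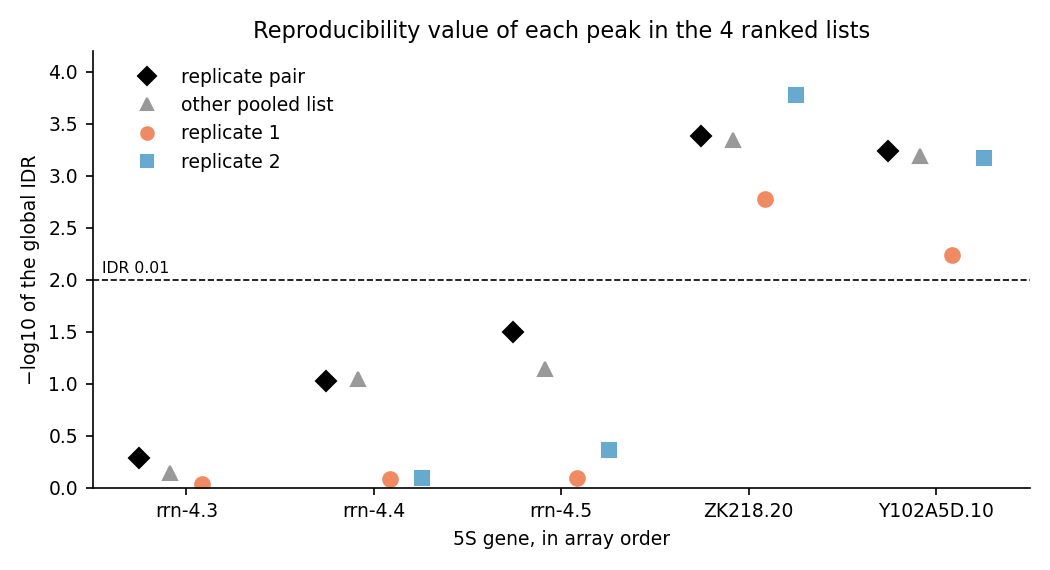
Reproducibility of the peak at each of the 5 genes (x axis) as −log10 of its global IDR (y axis) in the 4 ranked lists, with a dashed line at an IDR of 0.01. ZK218.20 and Y102A5D.10 lie above the line in all 4 lists, and rrn-4.3, rrn-4.4 and rrn-4.5 lie below it in every list in which they have a peak.

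None of the 5 genes had a peak in a thresholded list, whether the conservative set of 978 peaks, the other pooled set of 960, or the sets of 376 and 366 peaks of replicates 1 and 2. The 9 other 5S genes and the 12 SL1 genes had none either. The conservative set holds 0.889% of the ranked peaks of the replicate pair, and the thresholded sets hold 0.875% of those of the other pooled list, 0.585% of those of replicate 1 and 0.61% of those of replicate 2. For rrn-4.3, rrn-4.4 and rrn-4.5 the IDR was over the threshold, but the peaks at ZK218.20 and Y102A5D.10 were past it and still absent. They belong to 130 peaks, 11.7% of the 1108 past the threshold, that the conservative set leaves out.

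By signal these absent peaks stood among the stronger ones. Of the 978 conservative peaks, 122 had a higher signal than that at ZK218.20 and 167 a higher one than that at Y102A5D.10, and the median of the set was 87.9. The 130 left-out peaks had a median signal of 140.9, and 70 of them were below ZK218.20. On chromosome V there were 27 left-out peaks, 3 of them in the array. The nearest conservative peaks lay 3481 bp before the array, with a signal of 76.1, and 232603 bp after it, with a signal of 62.5. Between those and outside the array there were 247 ranked peaks, of which 3 were past the threshold and also left out. Per the file records, every thresholded list was derived from 1 further input file that the ranked lists were not, and the records do not say what it holds. Absence from a thresholded list is therefore not by itself a low reproducibility value, and the part of that file in leaving out the peaks at ZK218.20 and Y102A5D.10 was not tested.

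The distance of 200 bp divides the summits at 2 genes from the rest. Just inside it lay the summit at ZK218.20, 123 bp from the gene. Just outside lay the summits 224 bp upstream of rrn-4.2, with a signal of 9.36, and 227 bp upstream of rrn-4.11, with a signal of 123.7. The second of these had an IDR of 0.000979 and was the third left-out peak of the array; it had a signal of 48.1 in replicate 1, with an IDR of 0.0149, and 85.8 in replicate 2, with an IDR of 0.000196. Its pooled signal lay below those of ZK218.20 and Y102A5D.10 and above those of rrn-4.3, rrn-4.4 and rrn-4.5, and so did its signal in replicate 1, while in replicate 2 it lay between ZK218.20 and Y102A5D.10.

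rrn-4.7 carried a peak in some lists. Its summit lay 30 bp downstream of the gene in replicate 2, with a signal of 52.3 and an IDR of 0.00402. In the other pooled list it was 29 bp downstream with a signal of 34.4 and an IDR of 0.527, and neither the list of the replicate pair nor replicate 1's list had a summit within 200 bp. The nearest summits in those lists lay 735 and 736 bp away. In the list of the replicate pair, the nearest summits to rrn-4.1, rrn-4.8, rrn-4.9, rrn-4.10, rrn-4.13 and rrn-4.14 lay between 857 and 2177 bp away.

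The array held 11 ranked peaks of the replicate pair in all, 5 at the genes above and 6 elsewhere. Of the 6, 3 lay in the longest gap between neighbouring 5S genes, from rrn-4.10 to rrn-4.11, with starts 2556 bp apart. Their signals were 40.2, 22.8 and 123.7. Another 2 lay between rrn-4.2 and rrn-4.3, with signals of 9.36 and 44.4, and the last, with 25.5, lay between rrn-4.3 and rrn-4.4.

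**Figure D4:**
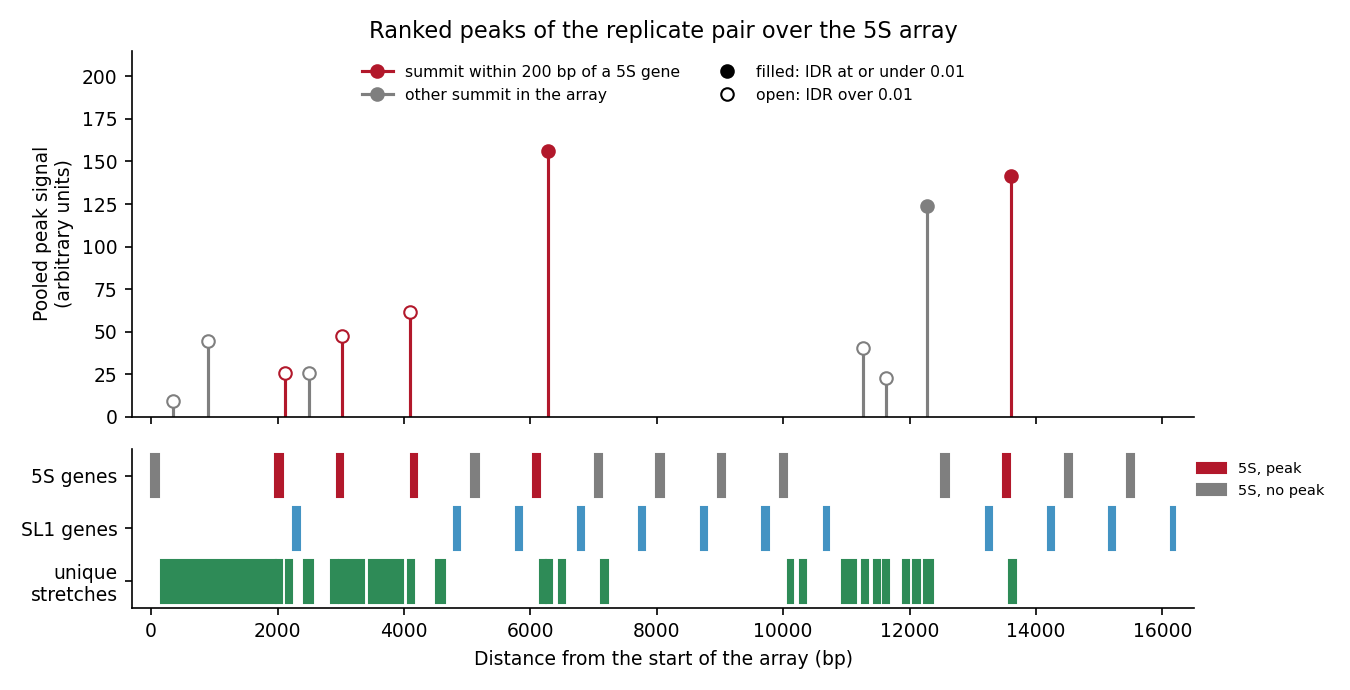
The 5S array in bp from its start (x axis). The upper panel shows the pooled signal (y axis, arbitrary units) of the 11 ranked peaks of the replicate pair, filled where the IDR was at or under 0.01; below are the 14 5S genes, the 12 SL1 genes and the stretches covered by 50-base windows found once in the genome. The 3 filled peaks, with signals from 123.7 to 156.0, and the 8 open ones all lie in or beside unique stretches.

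Summits in the array were set against the sequence that occurs once in the genome. A 50-base window was called unique when neither it nor its reverse complement occurs elsewhere in the reference genome. Repeat units that the reference may lack were not counted, so unique means found once in that sequence. A base was called covered when at least 1 unique window held it. This was so for 4943 of the 16205 bases of the array, or 30.5%. In the list of the replicate pair, 10 of the 11 summits in the array lay on a covered base, and the other, at rrn-4.3, lay 17 bp from one. In the other pooled list this held for 12 of 13 summits, in replicate 1 for 8 of 9 and in replicate 2 for 10 of 10. A covered base can still lie in largely repeated sequence: all 50-base windows over the summit were unique at 4 of the 11 summits of the replicate pair, 4 of 13 in the other pooled list, 2 of 9 in replicate 1 and 2 of 10 in replicate 2. At the 5 genes the share of windows over the summit that were unique was 80% at rrn-4.4, 66% at ZK218.20, 60% at Y102A5D.10, 52% at rrn-4.5 and 0% at rrn-4.3.

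By gene, the share of unique windows in the gene with 200 bp on each side was 55.5% at rrn-4.3, 39.6% at rrn-4.4, 21.3% at ZK218.20, 13.8% at rrn-4.5 and 12.8% at Y102A5D.10. Of the 9 other genes, 4 had any, with 24.0% at rrn-4.2, 10.6% at rrn-4.7, 5.74% at rrn-4.10 and 5.32% at rrn-4.11, and the other 5 had none. Of the 5 genes, rrn-4.3 had the highest share by this measure and the lowest signal. By the share of unique windows over the summit, rrn-4.3 was instead the lowest, at 0%, and rrn-4.4 the highest, at 80%. Inside the gene itself, only rrn-4.3 and rrn-4.4 had unique windows, 71.4% and 16.0%. How reads that match several units were placed is not given in the labels or the file records. The part of this repeated sequence in which units have a peak was not tested.

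**Figure D5:**
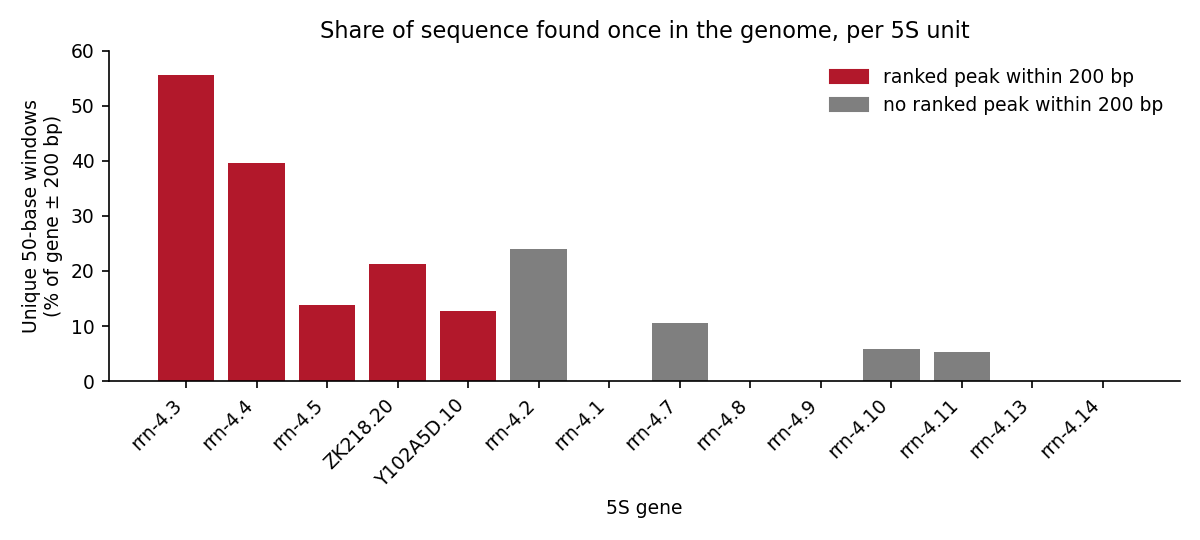
Share of 50-base windows found once in the genome (y axis, %) in each of the 14 5S genes with 200 bp on either side (x axis), the 5 genes with a ranked peak of the replicate pair on the left and the 9 others on the right. The genes with a peak range from 12.8% to 55.5% and the others from 0 to 24.0%.

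Of the 12 SL1 genes of the repeat, 1 had a ranked summit within 200 bp in each of the 4 lists, where 50.4% of genome windows did in the list of the replicate pair, 50.2% in the other pooled list, 30.3% in replicate 1 and 28.6% in replicate 2. That gene was sls-1.12, which lies between rrn-4.3 and rrn-4.4. In the list of the replicate pair it had a pair of summits in reach, one 137 bp away that is the peak of rrn-4.3, and one 146 bp away with a signal of 25.5 and an IDR of 0.399. The summits at the 5S genes lay farther from SL1 genes otherwise, from 302 bp at Y102A5D.10 to 698 bp at rrn-4.5. No peak of the replicate pair's list overlapped an SL1 gene, but in replicate 2's list a peak with a signal of 12.8 overlapped sls-1.12. Unique windows were again few: sls-1.12 had 29.4%, sls-1.10 had 0.668% and the other 10 had none.

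5S and spliced leader genes outside the array are flanked by mostly unique sequence. The 5S gene rrn-4.15, also on chromosome V at 17428879 to 17428996, has the common sequence over its 118 bp and 82.1% unique windows around it. In the list of the replicate pair its summit lay inside the gene, with a pooled signal of 49.8 and an IDR of 0.0155. Replicate 1's own list had a summit 36 bp outside the gene with a signal of 34.0, and replicate 2's had one inside it with 30.8. The IDR was 0.0968 in the other pooled list, 0.467 in replicate 1 and 0.471 in replicate 2. The pooled signal of rrn-4.15 lay between those of rrn-4.4 and rrn-4.5 and below those of ZK218.20 and Y102A5D.10. rrn-4.16, a divergent copy on chromosome I, had 69.6% identity to the common gene in a comparison without gaps. In the list of the replicate pair it had a summit 130 bp away with a signal of 32.1 and an IDR of 0.350. Neither was in a thresholded list. Among the 19 SL2 genes, which encode the second spliced leader and are dispersed in sequence that is at least 80.0% unique, 16 had a ranked and 4 a conservative peak, where 50.4% and 0.496% of windows of 119 bp over the genome did, with signals of the ranked peaks from 17.2 to 141.9 and a median of 38.2.

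The 5S genes of the array had no thresholded peak, while other RNA genes did to differing extents. Peaks at ZK218.20 and Y102A5D.10 were nonetheless past the IDR threshold. Such left-out peaks were not counted for the tRNA, snoRNA and small nuclear RNA genes below. Of the windows of 119 bp over the nuclear genome, 50.4% had a ranked and 0.496% a conservative summit within 200 bp. Of 612 nuclear tRNA genes, also transcribed by RNA polymerase III, 555 had a ranked summit within 200 bp and 360 a conservative one, whose peaks had a median signal of 109.4. Of 346 snoRNA genes 254 and 48 did, and of 99 small nuclear RNA genes other than spliced leaders 70 and 10. Among further products of RNA polymerase III, rpr-1, the RNA of RNase P, had a conservative peak of signal 331.7, mrpr-1, the RNA of RNase MRP, 186.5, yrn-1, a Y RNA, 99.5, and srpr-1.2, an RNA of the signal recognition particle, 72.3. srpr-1.1 had a ranked peak of signal 52.1 and no conservative one. The 4 annotated genes of RNA polymerase I, rrn-1.1, rrn-1.2, rrn-2.1 and rrn-3.1, had their nearest ranked summit 7637 bp away or farther. No share of unique windows was computed for these 4 genes, and the part of repeated sequence in this absence was not tested.

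Of 6 protein-coding genes linked to 5S RNA or to its transcription, 4 had a ranked peak at a start site and 0 a conservative one, where 74.9% and 1.24% of the 19973 nuclear protein-coding genes did. Summits within 500 bp of a transcription start were present at rpl-11.1 and rpl-11.2, whose ribosomal protein binds 5S RNA, at brf-1, a subunit of the polymerase III factor TFIIIB, and at tbp-1, the TATA-binding protein. Their highest signals were 48.6, 25.99, 29.0 and 23.1, none with an IDR at or under 0.01. rpl-5, the other 5S RNA-binding ribosomal protein, and rpc-1, which encodes a polymerase III subunit, had no ranked summit in that range.

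RNA genes whose peaks were most like those of the 5 genes were found by the distance between the log2 values of the 3 signals of the replicate pair's list, among 5901 genes with a peak. For ZK218.20 they were H06A10.3 and the tRNA gene H06A10.t1, which share a peak of pooled signal 168.7, and Y69A2AR.37 with 160.5. For Y102A5D.10 they were T28D6.10, T28D6.13 and T28D6.15, which share a single peak of 143.3. All of these peaks were in the conservative set, unlike those of ZK218.20 and Y102A5D.10. Of the 1108 peaks past the IDR threshold, 11.7% were left out of that set, so presence in it was usual. For rrn-4.5 they were T24A11.6, Y40C5A.23 and M163.12, for rrn-4.4 B0034.10, Y54F10AM.13 and Y32F6B.8, and for rrn-4.3 C56E10.6, T02E9.18 and T21B6.6. These were all annotated as ncRNA genes. Matched by signal to peaks over the IDR threshold, their peaks had IDRs from 0.0291 to 0.522, all over it too. The conservative set holds only peaks past the threshold. The absence of these peaks from it therefore follows from how they were matched and is not a separate result.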

How the data were processed

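Peak lists from 2 biological replicates were used, as deposited on ce11: 4 ranked lists (109990, 109723, 64220 and 59972 peaks for the replicate pair, the other pooled list and replicates 1 and 2) and 4 thresholded lists. Per the file records, the authors called peaks against an input. Nothing used here names the caller, aligner, read length or depth, so no depth-based limit was set. The deposited signal is the authors' enrichment value per peak, with no stated scaling between lists. The IDR was taken from the deposited −log10 global value. The 2 signal columns of the replicate pair's list are unnamed and were matched to the replicates by value. The 2 such columns of the other pooled list were not used.

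A summit belonged to a gene within 200 bp (500 bp of a transcription start for protein-coding genes). Genes came from Ensembl release 115, with symbols and sequences from RefSeq (WBcel235). Unique windows of 50 bases were counted on both strands of the genome, with code checked on simulated sequence, and with 36 and 100 bases as alternatives. The 3 RNA genes of most similar signal were named per 5S gene. Tools were pandas and Biopython. The genes and gene lists were chosen with earlier results of these data known. U6 genes are not reported here.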

Additional observations from a re-analysis of the deposited data

How the results depend on the processing

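The count of 5 5S genes with a ranked peak was 4 within 100 bp, 7 within 500 bp, 6 in the other pooled list, 5 by any overlap of 1 bp and 5 in the list of either replicate alone. In replicate 2's list the 5 included rrn-4.7 in place of rrn-4.3. The count fell to 1 where the summit had to lie inside the gene, and to 2 where the summit had to have an IDR at or under 0.01. The alternative by IDR and a limit of 230 bp, which gave 7, were chosen after seeing the data. In the list of the replicate pair, 1 SL1 gene had a ranked peak within 200 bp and 4 had one within 500 bp. That count was 0 within 100 bp, inside the gene or by overlap. Within 200 bp it was 1 in the other pooled list and in either replicate alone. Shares over genome windows were computed at 200 bp only. Counts of 5S and SL1 genes under other limits therefore have no such share beside them. Peaks at 5S genes past the IDR threshold numbered 2, or 3 at an IDR of 0.05, 2 at 0.001, and 2 to 3 in the lists of single replicates. Those in replicate 2's list included the peak at rrn-4.7. No 5S gene had a thresholded peak under any of the 5 alternatives tried for that count. The count of 9 genes with unique windows was 9 with 36 or 100 bases and 2 in the gene body alone. Signal percentiles of the 5 genes ranged from 54.7 to 99.8 in the other lists. Unknown depth and read length limit what the repeat can show.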
